A study of Homo sapiens with 8 samples.

Results

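The DNA glycosylases are the enzymes that start base excision repair, and 10 of their genes were followed through the deposited counts by symbol: UNG, SMUG1, TDG, OGG1, MUTYH, NTHL1, NEIL1, NEIL2, NEIL3 and MPG. These are 10 of 58884 genes in the table, and 9 of them were among the 14741 genes with enough counts to be tested. NEIL1 was not. The RNA came from U87, an established human glioblastoma cell line. There were 4 groups of 2 libraries: cells kept on AsiDNA for a long term and then given belinostat, cells given belinostat without AsiDNA, cells kept on AsiDNA alone, and cells given the solvent DMSO. Belinostat, an inhibitor of histone deacetylases, was given at 1 µM for 24 h. AsiDNA is a short double-stranded DNA molecule that imitates a broken end and draws repair proteins away from the chromosomes. The dose and duration of AsiDNA were not given in the sources used here. All groups were grown in the same serum-containing medium. The labels give U87 as the cell line of every sample. Their protocols also use the names MTU87 and LTAU87, which are not explained or tied to groups there. If these are separately kept lines, a difference between lines and one due to AsiDNA cannot be told apart. The labels do not say whether replicates were separate cultures. The p-values therefore rest on a spread between libraries that could be purely technical.

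A glycosylase flips a damaged or wrong base out of the helix and cuts the bond between that base and its sugar. The strand is then opened at the empty site by an endonuclease or by the glycosylase itself, filled by a polymerase and sealed by a ligase. Each enzyme has its own range of bases. UNG and SMUG1 remove uracil, TDG removes thymine and uracil that face guanine, OGG1 and MUTYH deal with oxidised guanine, NTHL1 and the NEIL enzymes remove oxidised bases of several kinds, and MPG removes alkylated purines. Glioblastoma is commonly treated with an alkylating drug, some of whose products are bases that this pathway removes.

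Libraries held between 6057394 and 9699637 counts, so 3 counts equalled 0.292 to 0.508 CPM. CPM are counts scaled to a common library size, here with factors from the trimmed mean of M-values (TMM). CDKN2A and CDKN2B, which are deleted in U87, had 0 counts in all 8 libraries. Of the mesenchymal glioma markers, VIM, FN1 and CD44 averaged at least 1430 CPM in each group, whereas CHI3L1 averaged 6.66 CPM in the combination, 16.1 with belinostat, 0.811 with AsiDNA and 1.23 with DMSO. The astrocyte marker GFAP had 0 counts in every library but those of the DMSO group, which held 3 and 5. The summed levels of markers of other cell types did not overlap between libraries with and without belinostat. The 3 endothelial markers summed to 13.5 and 16.5 CPM in the combination, 23.6 and 19.5 with belinostat, 3.74 and 6.11 with AsiDNA, and 5.15 and 5.17 with DMSO. CDH5 was at 0 throughout, and PECAM1, the 1 tested, was called higher in belinostat against DMSO cells. The 5 microglia and macrophage markers summed to 6.01 and 6.27 CPM in the combination, 5.87 and 6.44 with belinostat, 15.3 and 16.0 with AsiDNA, and 20.1 and 18.8 with DMSO. AIF1 was at 0 throughout, PTPRC totalled 1 count, and CSF1R was called lower in belinostat against DMSO cells. The 4 neuronal markers summed to 163 to 193 CPM in the libraries given belinostat and 48.6 to 69.7 CPM in the others, the 6 glial and neural stem markers to 27.1 to 57.7 and 5.86 to 8.94 CPM, and the 3 epithelial markers to 1.86 to 2.67 and 0.877 to 1.6 CPM. The glial sum followed NES, which averaged 55.7 CPM in the combination, 32.4 with belinostat, 6.74 with AsiDNA and 5.35 with DMSO. SOX2 had 0 counts throughout, and OLIG2 averaged at most 1.37 CPM in any group. The neuronal sum followed SYP and SNAP25, while TUBB3 averaged 12.3, 11.6, 12.3 and 13.3 CPM in the same order and RBFOX3 totalled 1 count. The share of all genes separating in this way was not computed. The part of these markers in the results was not tested. The DMSO replicates differed more than the others: 11.1% of 8142 well expressed genes lay over 1.5-fold apart between them, against 0.184% to 0.786% between replicates of the other groups. UNG, at 61.7 and 42.1 CPM in the DMSO libraries, and NEIL2, at 52.1 and 36.8 CPM, lay 1.47-fold and 1.41-fold apart. Both are under the 1.5-fold limit.

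The promoter sequences of UNG, NEIL3 and TDG are shown because all 3 were called lower in belinostat against DMSO cells and each stands for another range of bases. RefSeq windows on GRCh38.p14 ran from 250 bases before to 50 bases after each annotated start, and 8 of the 10 members matched 13 windows. SMUG1 and NEIL2 had no entry. Each window is written 5′ to 3′ in the direction of the gene. Capitals mark matches, on either strand, to 2 motifs of cell-cycle genes. The first is the E2F word, searched as TTTCCCGC, TTTGGCGC, TTTGCCGC or TTTCGCGC. The second is the cell-cycle homology region, searched as TTTGAA. UNG has 2 annotated starts, which lie on chromosome 12.
UNG, window 1, chr12:109097347-109097646, plus strand: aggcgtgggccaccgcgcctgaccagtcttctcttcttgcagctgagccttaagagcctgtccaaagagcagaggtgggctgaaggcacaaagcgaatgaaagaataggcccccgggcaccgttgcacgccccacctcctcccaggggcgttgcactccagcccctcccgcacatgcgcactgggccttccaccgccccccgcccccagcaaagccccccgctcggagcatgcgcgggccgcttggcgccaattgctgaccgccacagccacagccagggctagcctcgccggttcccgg
UNG, window 2, chr12:109097922-109098221, plus strand: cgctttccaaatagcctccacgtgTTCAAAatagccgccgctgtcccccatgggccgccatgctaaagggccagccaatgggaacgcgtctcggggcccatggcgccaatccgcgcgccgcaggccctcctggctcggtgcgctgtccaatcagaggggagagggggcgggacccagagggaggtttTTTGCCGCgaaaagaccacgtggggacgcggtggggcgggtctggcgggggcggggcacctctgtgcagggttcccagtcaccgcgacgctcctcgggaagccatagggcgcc
NEIL3, chr4:177309624-177309923, plus strand: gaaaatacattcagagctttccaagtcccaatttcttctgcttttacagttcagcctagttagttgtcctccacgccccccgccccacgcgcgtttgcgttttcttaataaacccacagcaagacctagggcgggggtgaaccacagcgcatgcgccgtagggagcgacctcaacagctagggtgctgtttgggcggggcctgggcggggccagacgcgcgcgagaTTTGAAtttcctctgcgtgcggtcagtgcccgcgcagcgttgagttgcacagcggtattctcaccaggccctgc
TDG, chr12:103965622-103965921, plus strand: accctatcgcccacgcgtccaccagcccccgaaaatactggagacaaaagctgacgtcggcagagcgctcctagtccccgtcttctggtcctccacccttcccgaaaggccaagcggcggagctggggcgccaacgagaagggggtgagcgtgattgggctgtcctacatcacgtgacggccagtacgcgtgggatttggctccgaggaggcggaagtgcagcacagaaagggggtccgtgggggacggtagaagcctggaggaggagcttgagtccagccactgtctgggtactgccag

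The second UNG window held the E2F word TTTGCCGC 63 bases before the start (position -63) and the reverse complement of TTTGAA at -226, while the first held neither motif. NEIL3 held TTTGAA at -24. The TDG window held no match to either. Of 35116 windows of the same length over all genes, 3.31% held an E2F word and 15.2% held TTTGAA on either strand, so the second match is common. A match describes these letters only. Among the other members with a window, MUTYH held TTTGAA in 1 of its 3 windows, and OGG1, NTHL1, NEIL1 and MPG held no match. The 2 UNG starts are known to give a nuclear and a mitochondrial form of the enzyme, and counts per gene do not separate them.

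Belinostat lowered most of the measured glycosylase transcripts and raised SMUG1. In belinostat cells against DMSO cells, 6 of the 9 tested genes fell (UNG, TDG, OGG1, MUTYH, NEIL2 and NEIL3), 1 rose (SMUG1) and 2 were not called (NTHL1 and MPG), at an adjusted p under 0.05 in edgeR's quasi-likelihood test. Belinostat changed a large part of the transcriptome, so this count stands beside 57.4% of all tested genes called, of which 27.6% of tested genes were lower and 29.8% higher. The median log2 fold change was -0.64 over the 9 genes and 0.06 over all tested genes. Summed over the 10 members, the transcripts made up 145.0 and 146.0 CPM in belinostat cells, against 258.0 and 223.0 CPM in DMSO cells. In bulk RNA, fewer cells that express a gene and less of its RNA per cell cannot be told apart.

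**Figure D1:**
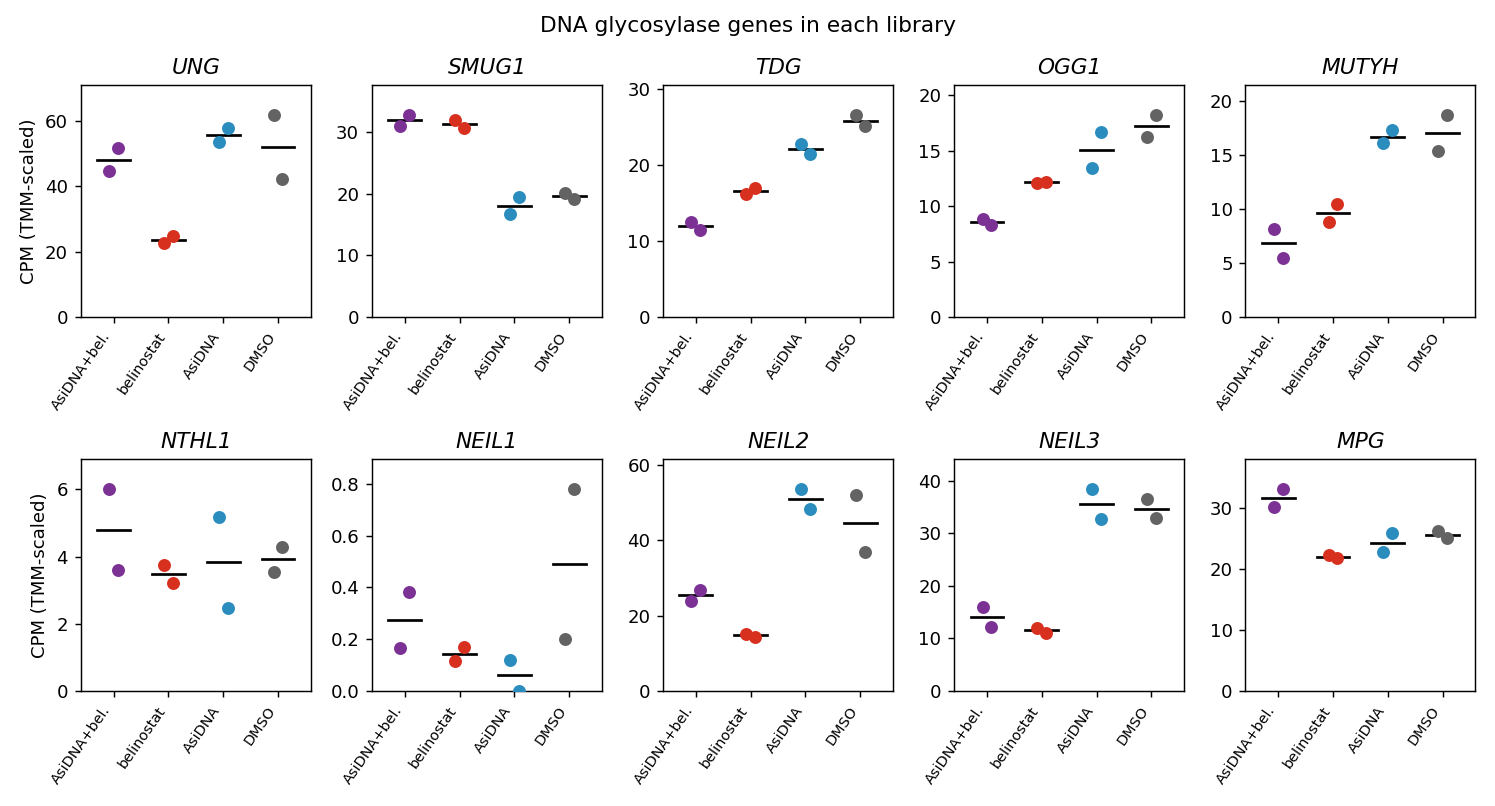
CPM (TMM-scaled, vertical axis, from 0, with a separate scale for each gene) of the 10 DNA glycosylase genes in each of the 8 libraries, by group. Points are libraries and bars are means of 2. UNG sits at 22.6 and 24.7 CPM in the belinostat group, below all 6 other libraries, and SMUG1 is above 30 CPM in each of the 4 libraries given belinostat and below 21 CPM in the others.

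UNG, the main enzyme against uracil in replicating DNA, had 44.6 and 51.6 CPM in AsiDNA-with-belinostat cells, 22.6 and 24.7 CPM in belinostat cells, 53.4 and 57.8 CPM in AsiDNA cells, and 61.7 and 42.1 CPM in DMSO cells. The belinostat libraries were the lowest of all 8, and those of the combination overlapped the DMSO libraries. Belinostat cells held UNG at 0.455 times the DMSO level, a log2 fold change of -1.13 ± 0.18 (SE, adjusted p = 0.000135). The size of this fall depended on which DMSO library it was measured against, being -0.85 without DMSO replicate 1 and -1.41 without DMSO replicate 2. In AsiDNA cells, where belinostat was added to the background of AsiDNA, UNG differed by -0.21 ± 0.17 (adjusted p = 0.366), with a 95% interval of -0.58 to 0.17. Both combination libraries lay below both AsiDNA libraries. UNG was higher by 1.03 ± 0.18 in the combination against belinostat alone (adjusted p = 0.00103), at 2.04 times its level. The combination against DMSO gave -0.11 ± 0.17 (adjusted p = 0.634), which was -0.36 without DMSO replicate 2 (adjusted p = 0.0141) and 0.21 without DMSO replicate 1.

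SMUG1, a second uracil glycosylase that also removes oxidised pyrimidines such as hydroxymethyluracil, was the only member called higher with belinostat. It had 31.0 and 32.7 CPM in AsiDNA-with-belinostat cells, 32.0 and 30.7 CPM in belinostat cells, 16.7 and 19.4 CPM in AsiDNA cells, and 20.1 and 19.2 CPM in DMSO cells. The 4 libraries given belinostat all lay above the 4 that were not. The rise was 0.67 ± 0.15 against DMSO (adjusted p = 0.00173) and 0.83 ± 0.15 in the combination against AsiDNA (adjusted p = 0.000745). Between the combination and belinostat alone the difference was 0.02 ± 0.15, with a 95% interval of -0.3 to 0.34. In its gene span SMUG1 also overlaps LINC02381, a non-coding RNA on the other strand with at most 5.53 CPM in any library.

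TDG repairs thymine and uracil that face guanine and also removes the oxidised forms of methylcytosine during active demethylation. It had 12.5 and 11.4 CPM in AsiDNA-with-belinostat cells, 16.1 and 16.9 CPM in belinostat cells, 22.7 and 21.4 CPM in AsiDNA cells, and 26.5 and 25.1 CPM in DMSO cells. The groups did not overlap: the combination was lowest, then came belinostat, then AsiDNA, and DMSO was highest. The fall was -0.64 ± 0.16 in belinostat against DMSO cells (adjusted p = 0.00361) and -0.89 ± 0.17 in the combination against AsiDNA (adjusted p = 0.000862). In the combination against DMSO it reached -1.11 ± 0.17 (adjusted p = 0.000111). The difference between the combination and belinostat alone, -0.47 ± 0.17 (adjusted p = 0.0437), lost its call under 11 of the alternatives, among them DESeq2 (adjusted p = 0.224) and the fit without AsiDNA-with-belinostat replicate 2 (-0.35, adjusted p = 0.293). For AsiDNA against DMSO the difference was -0.22 ± 0.15 (adjusted p = 0.554).

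OGG1 cuts out 8-oxoguanine that faces cytosine. It had 8.84 and 8.32 CPM in AsiDNA-with-belinostat cells, 12.1 and 12.2 CPM in belinostat cells, 13.4 and 16.7 CPM in AsiDNA cells, and 16.2 and 18.2 CPM in DMSO cells. The combination was lowest and belinostat alone next, with AsiDNA and DMSO libraries overlapping. Its fall with belinostat against DMSO was -0.5 ± 0.19 (adjusted p = 0.0361), a call that was lost with DESeq2 (adjusted p = 0.107), without DMSO replicate 2 (adjusted p = 0.0567) and without belinostat replicate 1 (adjusted p = 0.0876) or 2 (adjusted p = 0.0685). In the combination the fall was -0.81 ± 0.2 against AsiDNA (adjusted p = 0.00576) and -1.0 ± 0.2 against DMSO (adjusted p = 0.000979), and the first of these was lost without AsiDNA replicate 2 (-0.65, adjusted p = 0.0763) or AsiDNA-with-belinostat replicate 2 (-0.79, adjusted p = 0.05).

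MUTYH, which removes adenine that was paired with 8-oxoguanine, followed OGG1 in direction. It had 8.18 and 5.51 CPM in AsiDNA-with-belinostat cells, 8.8 and 10.5 CPM in belinostat cells, 16.1 and 17.3 CPM in AsiDNA cells, and 15.4 and 18.7 CPM in DMSO cells. All 4 libraries given belinostat lay below the other 4. The log2 fold change was -0.83 ± 0.22 in belinostat against DMSO cells (adjusted p = 0.00547) and -1.3 ± 0.23 in the combination against AsiDNA (adjusted p = 0.000559). The combination against belinostat alone gave -0.51 ± 0.25 (adjusted p = 0.112), with an interval of -1.04 to 0.03. MUTYH and TOE1 overlap by 801 bases on opposite strands, and the strand setting of the counting is not given in the sources used here. TOE1 had 5.17 and 7.68 CPM in combination cells, 6.57 and 6.44 CPM in belinostat cells, 22.8 and 23.1 CPM in AsiDNA cells, and 25.0 and 19.5 CPM in DMSO cells, and it changed by -1.77 ± 0.22 in belinostat against DMSO cells (adjusted p = 1.68e-05).

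NEIL2 and NEIL3 had the largest fitted falls of the 9 tested members in belinostat against DMSO cells. NEIL2, which prefers oxidised cytosines and is active on bubbles such as those at transcribed genes, had 24.0 and 26.9 CPM in AsiDNA-with-belinostat cells, 15.1 and 14.4 CPM in belinostat cells, 53.6 and 48.2 CPM in AsiDNA cells, and 52.1 and 36.8 CPM in DMSO cells. The combination thus lay above belinostat alone and below both other groups. Belinostat cells held 0.333 times the DMSO level, a change of -1.59 ± 0.18 (adjusted p = 8.37e-06). The combination differed by -1.0 ± 0.17 from AsiDNA (adjusted p = 0.000456), by -0.8 ± 0.17 from DMSO (adjusted p = 0.00186) and by 0.79 ± 0.19 from belinostat alone (adjusted p = 0.00549). Without DMSO replicate 1, the difference between the combination and DMSO was -0.51.

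NEIL3 acts on oxidised bases in single strands and on crosslinks between strands, and is known to be expressed in dividing cells. It had 16.0 and 12.2 CPM in AsiDNA-with-belinostat cells, 12.0 and 11.0 CPM in belinostat cells, 38.4 and 32.6 CPM in AsiDNA cells, and 36.4 and 32.9 CPM in DMSO cells. The 4 libraries given belinostat were all below 17 CPM and the other 4 all above 32 CPM. The changes were -1.59 ± 0.18 in belinostat against DMSO cells (adjusted p = 7.34e-06), -1.35 ± 0.18 in the combination against AsiDNA (adjusted p = 4.89e-05) and 0.28 ± 0.2 in the combination against belinostat alone (adjusted p = 0.265).

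NTHL1 removes oxidised pyrimidines and was too scarce for a firm value. It had 6.01 and 3.59 CPM in AsiDNA-with-belinostat cells, 3.75 and 3.22 CPM in belinostat cells, 5.19 and 2.47 CPM in AsiDNA cells, and 3.54 and 4.29 CPM in DMSO cells, and every pair of groups overlapped. The belinostat difference was -0.16 ± 0.39 without AsiDNA, with an interval of -1.0 to 0.69, and 0.28 ± 0.39 with it, with an interval of -0.57 to 1.13. A change of 1 on the log2 scale is at or inside these limits. NEIL1, which acts on oxidised bases ahead of replication, had 1 and 3 counts in AsiDNA-with-belinostat cells, 1 and 1 in belinostat cells, 1 and 0 in AsiDNA cells, and 2 and 8 in DMSO cells. At this depth no fold is given for it.

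MPG excises methylated adenines and guanines and hypoxanthine. It had 30.2 and 33.2 CPM in AsiDNA-with-belinostat cells, 22.3 and 21.8 CPM in belinostat cells, 22.8 and 26.0 CPM in AsiDNA cells, and 26.3 and 25.1 CPM in DMSO cells. Both combination libraries were the highest of the 8. The combination exceeded belinostat alone by 0.52 ± 0.15 (adjusted p = 0.0144), a call that was lost without AsiDNA-with-belinostat replicate 2 (adjusted p = 0.0919) or belinostat replicate 2 (adjusted p = 0.0526). Against AsiDNA it differed by 0.38 ± 0.15 (adjusted p = 0.0563). This difference was called when only these 2 groups were fitted (adjusted p = 0.0081), but under none of the alternatives that kept all 8 libraries. Over the alternatives other than leaving out 1 library, the value lay between 0.25 and 0.39. Belinostat cells differed from DMSO cells by -0.22 ± 0.15 (adjusted p = 0.236). The MPG gene overlaps NPRL3 by 1583 bases on the opposite strand. NPRL3 was lower in the combination than with belinostat alone, by -1.99 ± 0.35 (adjusted p = 0.000984).

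**Figure D2:**
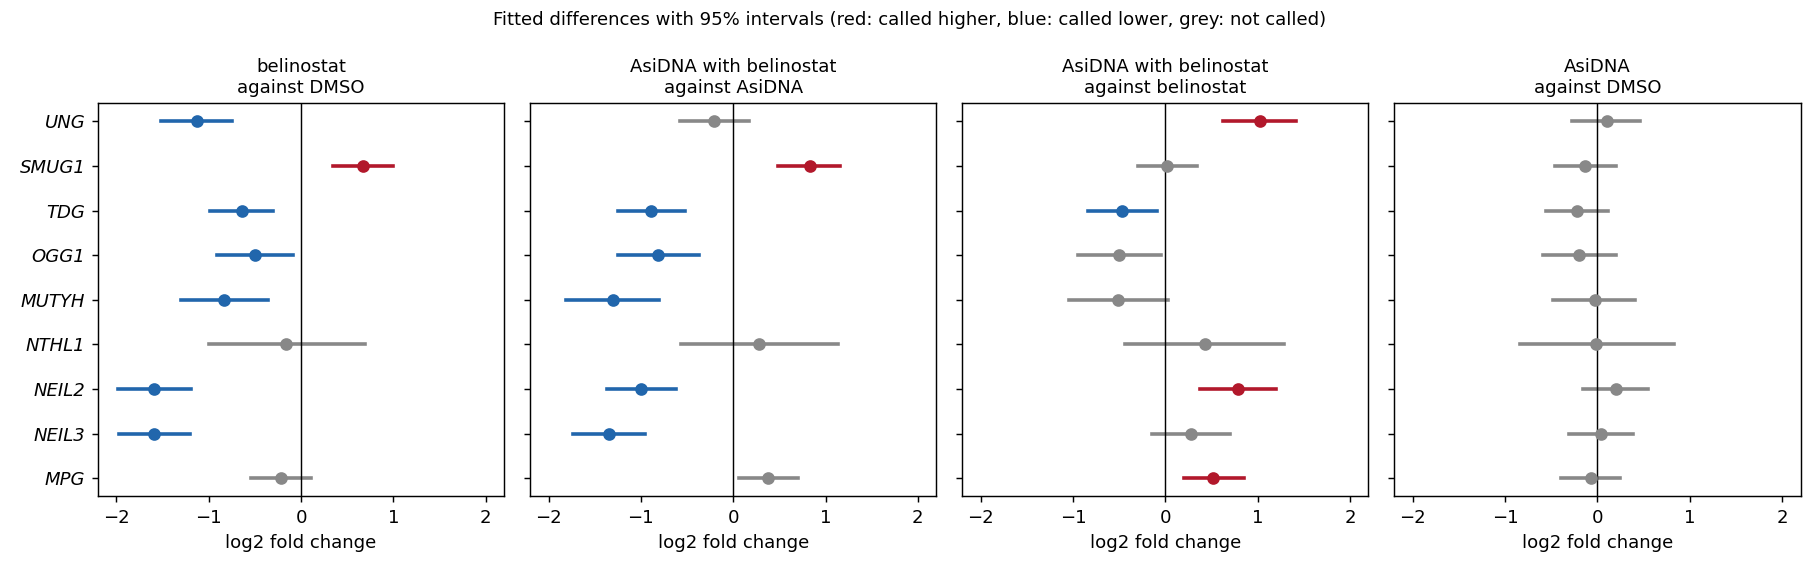
Log2 fold changes (horizontal axis) of the 9 tested genes with 95% intervals, in 4 of the comparisons, from edgeR. Red is called higher, blue called lower and grey not called. In the first panel 6 genes are called lower and SMUG1 is called higher, and none of the 9 genes is called in the panel of AsiDNA against DMSO.

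In cells kept on AsiDNA, belinostat gave 6 calls among the 9 genes: 5 lower (TDG, OGG1, MUTYH, NEIL2 and NEIL3) and 1 higher (SMUG1), beside 42.9% of all tested genes (21.2% lower and 21.7% higher). The median over the 9 genes was -0.81, against 0.02 over all tested genes. The belinostat comparison on AsiDNA and the one on DMSO share no library, and these same 6 genes were called in the same direction in both. The share of all tested genes called in both in the same direction was not computed, so this count has no background beside it. UNG was called in the comparison on DMSO but not in that on AsiDNA, and the test of that difference is the interaction. With both agents against DMSO, 5 were lower and 1 higher, beside 48.1% of all tested genes (23.7% lower and 24.3% higher), again the same 6 genes. The comparison of both agents with DMSO reuses libraries of those above. Its median was -0.8, against -0.01 for all tested genes.

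The combination against belinostat alone gave a different pattern, in which UNG, NEIL2 and MPG were higher and TDG was lower. These 4 calls among 9 stand beside 43.4% of all tested genes (22.0% higher and 21.4% lower), a share near that of the members. Without AsiDNA-with-belinostat replicate 2 or belinostat replicate 2 there were 2 calls, as MPG and TDG were lost, beside 20.1% and 24.1% of all tested genes called in those fits. The median was 0.28 over the 9 genes and -0.01 over all. Summed over the 10 members, the combination cells held 182.0 and 186.0 CPM and the belinostat cells 145.0 and 146.0 CPM. TDG, OGG1 and MUTYH were each lower in both combination libraries than in both belinostat libraries, although OGG1 (-0.5 ± 0.21, adjusted p = 0.0661) and MUTYH were not called. UNG, NEIL2, NEIL3 and MPG were each higher in both, and NEIL3 was not called. The share of all genes whose libraries separate in this comparison was not computed. The OGG1 difference was called when only these 2 groups were fitted (adjusted p = 0.0354), but under none of the alternatives that kept all libraries. Over the alternatives other than leaving out 1 library, it lay between -0.56 and -0.43.

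AsiDNA alone gave no glycosylase call against DMSO, beside 0.0204% of all tested genes, in edgeR or in DESeq2. None of the 9 had an unadjusted p under 0.05, and the log2 fold changes lay between -0.22 (TDG) and 0.2 (NEIL2). The DMSO spread limits this comparison: without DMSO replicate 1, UNG was higher in AsiDNA cells by 0.42 (adjusted p = 0.0108) and NEIL2 by 0.49 (adjusted p = 0.00544). These 2 calls among 9 stand beside 31.6% of all tested genes called in that fit. Without DMSO replicate 2 neither was called, beside 0.401% of all tested genes. Summed levels were 242.0 and 242.0 CPM in AsiDNA cells, against 258.0 and 223.0 CPM in DMSO cells.

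Whether the belinostat effect differed between cells with and without AsiDNA was tested as an interaction, which was called for 0 of 9 genes, beside 0.00678% of all tested genes. UNG had the largest value, 0.93 ± 0.25 (unadjusted p = 0.00237, adjusted p = 0.0853), with a 95% interval of 0.39 to 1.47. NEIL2 gave 0.59 ± 0.25 (adjusted p = 0.198) and MPG 0.6 ± 0.21 (adjusted p = 0.139), and these 3 genes were the only ones of the 9 with an unadjusted p under 0.05. DESeq2 gave an adjusted p to 5 of the 9 genes and called 1 of these 5, UNG (0.97, adjusted p = 0.0266). This stands beside 9.36% of all genes to which it gave an adjusted p. The interaction rests on the DMSO libraries. Without replicate 1 the UNG value was 0.64. Without replicate 2 UNG gave 1.21, NEIL2 0.84 and MPG 0.65. Each of these fits leaves 1 DMSO library and so holds no spread of the DMSO group. Interaction calls of such fits among the 9 genes are not given. The UNG value was positive in each of these fits, between 0.64 and 1.21.

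**Figure D3:**
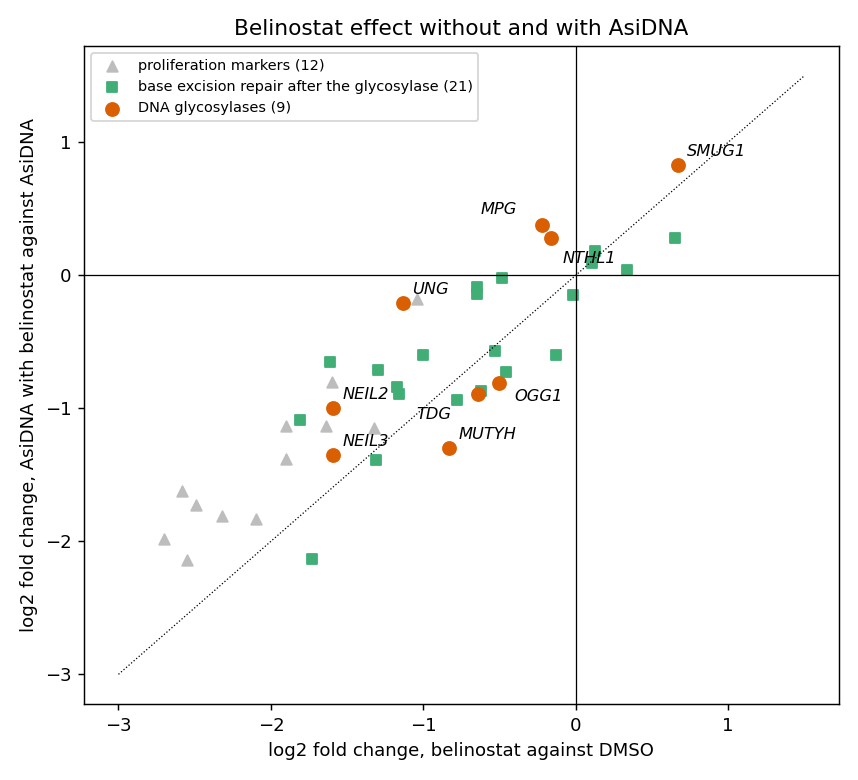
Log2 fold change with belinostat in AsiDNA cells (vertical) against that in DMSO cells (horizontal), which share no library, for 9 DNA glycosylase genes, 21 genes acting after the glycosylase and 12 proliferation markers. The dotted line marks equal changes. UNG lies above the line, at -0.21 on the vertical axis and -1.13 on the horizontal, and NEIL2 at -1.0 and -1.59, while TDG, OGG1 and MUTYH lie below it.

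Levels between genes were compared as CPM per kb of exon, because longer transcripts gather more reads. In the combination, MPG (19.1) and UNG (18.8) overlapped at the top, then came NEIL2 (7.56), SMUG1 (5.29) and NEIL3 (4.76), the last 2 overlapping, and below them TDG (2.43), NTHL1 (1.98), MUTYH (1.75), OGG1 (0.982) and NEIL1 (0.0397), where NTHL1 overlapped both TDG and MUTYH. With belinostat alone the order was MPG (13.3), UNG (9.23), SMUG1 (5.2), NEIL2 (4.38), NEIL3 (3.88), TDG (3.37), MUTYH (2.47), NTHL1 (1.43), OGG1 (1.39) and NEIL1 (0.0207), where NTHL1 and OGG1 overlapped. In AsiDNA cells UNG came first (21.6), followed by NEIL2 (15.1) and MPG (14.7), which overlapped, and by NEIL3 (12.0), TDG (4.5), MUTYH (4.27), SMUG1 (2.98), OGG1 (1.73), NTHL1 (1.58) and NEIL1 (0.0087). TDG and MUTYH overlapped there, as did OGG1 and NTHL1. In DMSO cells the order was UNG (20.2), MPG (15.4), NEIL2 (13.2), NEIL3 (11.7), TDG (5.26), MUTYH (4.36), SMUG1 (3.26), OGG1 (1.97), NTHL1 (1.6) and NEIL1 (0.0706), where NEIL2 overlapped both MPG and NEIL3. SMUG1 thus had rank 3 of 10 in belinostat cells and rank 7 in DMSO cells. The exon lengths are unions over all annotated transcripts, from 1661 bases for MPG to 8733 for OGG1, so a gene expressed mainly from shorter transcripts is understated.

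**Figure D4:**
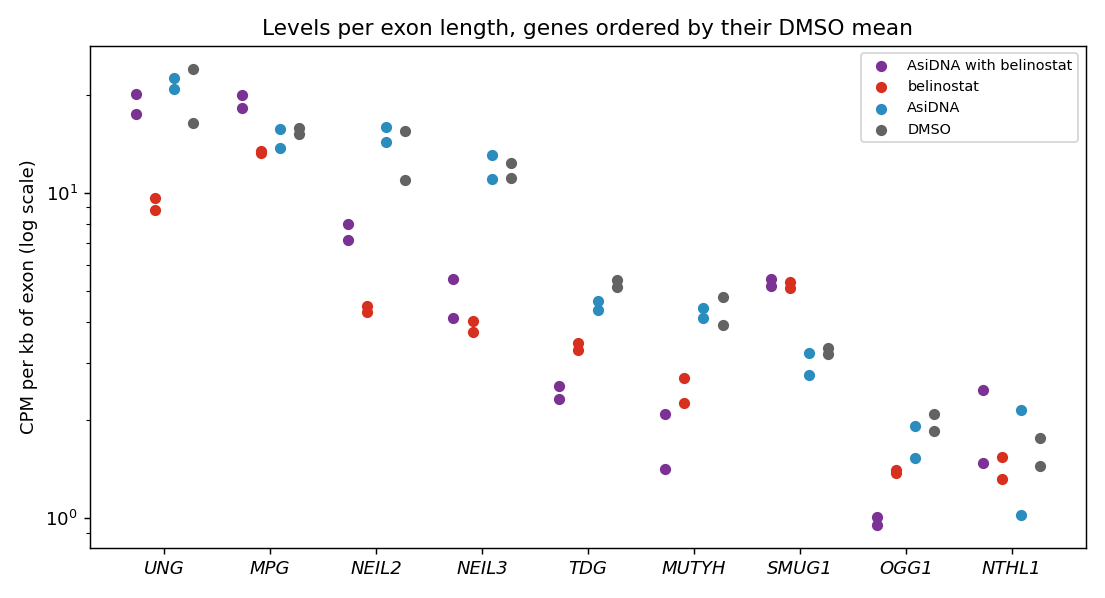
Level per exon length (CPM per kb, log scale) of the 9 tested genes in each library, ordered by their DMSO mean, with 4 groups side by side for each gene. In belinostat cells only MPG is above 10 CPM per kb, whereas UNG, MPG, NEIL2 and NEIL3 are in DMSO cells.

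Many genes that act after the glycosylase fell with belinostat as well. Of 21 listed genes, all tested, 13 fell and 1 rose in belinostat against DMSO cells (median -0.65), beside 27.6% of all tested genes lower and 29.8% higher. The polymerase clamp PCNA (-1.81 ± 0.14, adjusted p = 3.61e-07), the flap nuclease FEN1 (-1.61 ± 0.15, adjusted p = 1.89e-06), the replicative ligase LIG1 (-1.73 ± 0.21, adjusted p = 1.34e-05) and the break sensor PARP1 (-1.3 ± 0.15, adjusted p = 8.11e-06) were among those that fell, and all but PARP1 also serve in replication. The endonuclease APEX1, which opens the strand at the empty site, had 22.2 and 21.6 CPM in combination cells, 15.6 and 13.5 CPM in belinostat cells, 33.7 and 32.7 CPM in AsiDNA cells, and 32.6 and 25.9 CPM in DMSO cells. Belinostat cells held less of it than DMSO cells, by a log2 change of -1.0 ± 0.17 (adjusted p = 0.000218). The scaffold XRCC1 changed by -0.46 ± 0.14 (adjusted p = 0.0104) and the ligase LIG3 by -0.78 ± 0.15 (adjusted p = 0.00051). The gap-filling polymerase POLB gave 0.34 ± 0.19 (adjusted p = 0.15), while the related polymerase POLL was the 1 gene that rose (0.65 ± 0.2, adjusted p = 0.0154).

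In AsiDNA cells belinostat lowered 13 of the same 21 genes and raised 0 (median -0.6), beside 21.2% of all tested genes lower and 21.7% higher. Against belinostat alone, 8 of the 21 genes were higher in the combination and 2 were lower, beside 22.0% of all tested genes higher and 21.4% lower. FEN1 (1.24 ± 0.16, adjusted p = 0.000271) and PCNA (0.86 ± 0.14, adjusted p = 0.000727) were higher there, and LIG1 (-0.63 ± 0.24, adjusted p = 0.0488) was lower. The lower calls, LIG1 among them, were lost when any 1 library of the combination or of belinostat was left out. These 10 calls became 5 to 6 without 1 library of the combination or of belinostat, where the share of all tested genes called was 29.5% without combination replicate 1, 20.1% without combination replicate 2, 27.4% without belinostat replicate 1 and 24.1% without belinostat replicate 2. AsiDNA against DMSO gave 0 calls in this list, and 9 without DMSO replicate 1, beside 31.6% of all tested genes. The interaction gave 0 calls, 2 without DMSO replicate 1, beside 6.51% of all tested genes, and 11 without DMSO replicate 2, beside 34.6%.

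MBD4, a glycosylase outside the 10 that removes thymine at methylated sites, had 41.5 and 41.9 CPM in combination cells, 53.6 and 57.8 CPM in belinostat cells, 48.7 and 48.3 CPM in AsiDNA cells, and 48.1 and 43.9 CPM in DMSO cells. It was lower in the combination than with belinostat alone (-0.41 ± 0.13, adjusted p = 0.0202), as TDG was, and belinostat against DMSO gave 0.27 ± 0.13 (adjusted p = 0.0782). Of 9 tested genes of the nucleotide pool and of cytosine deamination (12 listed), 5 fell and 1, NUDT18, rose (1.33 ± 0.33, adjusted p = 0.00373) in belinostat against DMSO cells, beside 27.6% of all tested genes lower and 29.8% higher. APOBEC3B, a cytosine deaminase that makes uracil in DNA, fell by 3.22 ± 0.24 on the log2 scale (adjusted p = 2.79e-07), and DUT, which keeps dUTP out of the nucleotide pool, fell by 0.75 ± 0.16 (adjusted p = 0.00108). Of 8 tested genes around active demethylation (9 listed), 2 rose and 2 fell in the same comparison, beside 57.4% of all tested genes called in either direction. The rises were TET2, an oxidase of methylcytosine (0.41 ± 0.13, adjusted p = 0.0131), and GADD45B (0.82 ± 0.17, adjusted p = 0.00116). The falls were the maintenance methyltransferase DNMT1 (-1.29 ± 0.13, adjusted p = 2.04e-06) and its partner UHRF1 (-2.3 ± 0.13, adjusted p = 3.99e-08). TET3 was not called (0.39 ± 0.2, adjusted p = 0.11) and TET1 was not tested. Of the enzymes that repair a base without cutting it, ALKBH2 (-0.18 ± 0.21, adjusted p = 0.474) and ALKBH3 (0.01 ± 0.18, adjusted p = 0.96) were not called and MGMT was not tested.

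Cell-division markers moved with belinostat as well. All 12 listed markers were lower in belinostat cells than in DMSO cells (median -2.0), beside 27.6% of all tested genes, and 11 of 12 were lower in the combination than in AsiDNA cells (median -1.5), beside 21.2%. Their summed level was 1480 and 1560 CPM in combination cells, 1080 and 1080 CPM in belinostat cells, 4050 and 4050 CPM in AsiDNA cells, and 4450 and 3700 CPM in DMSO cells, and none of the 12 was at 0. Against belinostat alone, 9 of the 12 were higher in the combination, beside 22.0% of all tested genes, as UNG and NEIL2 were. The part of these markers in the glycosylase changes was not tested.

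Across the 8 libraries, several pairs of members moved alike. Pearson's r of log2 CPM was 0.949 for OGG1 with TDG, 0.948 for MUTYH with TDG, 0.939 for OGG1 with MUTYH, 0.934 for NEIL2 with NEIL3 and 0.902 for UNG with NEIL2. NEIL3 gave 0.861 with MUTYH and 0.837 with TDG, above its 0.713 with UNG, so these pairs did not make separate sets. SMUG1 ran against NEIL3, with an r of -0.97, and against MUTYH, with -0.906, and UNG with OGG1 gave 0.181. These are descriptions of 8 libraries that share 4 treatments. By the same measure over 9727 genes with a mean log2 CPM of at least 3, the gene nearest to UNG was the ribosomal protein gene RPS13 (0.994), that nearest to NEIL2 was the condensin subunit NCAPD2 (0.999), that nearest to NEIL3 was MCPH1 (0.995), that nearest to TDG was RFX1 (0.994), and that nearest to SMUG1 was COG5 (0.995).

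Members lie close to other genes whose reads could be mixed with theirs if strand was not used in counting. NTHL1 overlaps TSC2 by 402 bases on the opposite strand. OGG1 overlaps 2 genes on the opposite strand, CAMK1 by 12651 bases and TADA3 by 8360 bases. TADA3 was raised in the combination against belinostat alone (0.99 ± 0.19, adjusted p = 0.00144) where OGG1 had -0.5 ± 0.21 (adjusted p = 0.0661). CAMK1 was also called higher there (0.69 ± 0.17, adjusted p = 0.00611). In belinostat against DMSO cells both were called lower, as OGG1 was. CAMK1 changed by -0.84 ± 0.16 (adjusted p = 0.000713) and TADA3 by -0.56 ± 0.19 (adjusted p = 0.0198). Whether reads were shared was not tested. TDG and UQCC6 start 96 bases apart on opposite strands without overlapping, and UQCC6 was not called in belinostat against DMSO (0.61 ± 0.37, adjusted p = 0.171). The pseudogenes TDGP1, UNGP1, UNGP3 and SMUG1P1 held between 0 and 3 counts in every library. On GRCh38 in GENCODE v29, UNG spans bases 109097574 to 109110992 of chromosome 12 (plus strand), TDG 103965804 to 103988874 of chromosome 12 (plus), SMUG1 54121277 to 54189008 of chromosome 12 (minus), NEIL3 177309836 to 177362943 of chromosome 4 (plus) and MPG 77007 to 85853 of chromosome 16 (plus). OGG1 spans 9749944 to 9788219 of chromosome 3 (plus) and MUTYH 45329163 to 45340470 of chromosome 1 (minus). NTHL1 spans 2039815 to 2047866 of chromosome 16 (minus), NEIL1 75346955 to 75357114 of chromosome 15 (plus), and NEIL2 lies on chromosome 8. All 10 are annotated as protein-coding.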

How the data were processed

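RNA-seq libraries of U87 cells, 2 per group in 4 groups, were compared. Stranded total RNA libraries were made after ribosomal RNA depletion, per the labels' protocols. Per the submitters' processing notes, cutadapt 1.16, STAR 2.7.0 and featureCounts 1.6.3 were used, on GRCh38. The annotation release and the strand setting were not given in the sources used here. The authors deposited whole-number read counts per gene without normalization, and 8 of 8 columns were mapped. Of these genes 28036 had 0 counts throughout, and 8 identifiers without a name held 0.0029% of counts.

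Statistics were computed in R 4.3.3. With edgeR 4.0.16, filterByExpr kept 14741 genes, and these were TMM-scaled and fitted together with 1 coefficient per group (4 residual degrees of freedom, prior 9.56, common dispersion 0.014). Comparisons and the interaction used the quasi-likelihood F-test of edgeR, with Benjamini-Hochberg adjustment over all tested genes and calls at an adjusted p under 0.05. A standard error is the absolute log2 fold change divided by the square root of F, and log2 CPM used a prior count of 2. Counting precision is limited by depth, with 3 counts as the floor. Exon lengths and positions came from GENCODE v29 and promoter windows from RefSeq.

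The members, the lists and the rule for named genes were chosen with earlier results of these data known. All 10 members were named in the text, with genes of the lists named by the 4 smallest adjusted p in a list and comparison or because they belong to a fixed set of repair genes. POLL and NUDT18 were named after their values were seen. The values of 2 listed genes are not reported here. The genes overlapping a member and the motifs were looked up after the counts were seen. The replicate numbers were checked for pairing by the correlation of deviations from group means, which lay between -0.196 and 0.139. The alternatives comprised DESeq2 1.42.0, RLE size factors, library size alone, no low-count filter, an adjusted p under 0.01, a replicate block, fits of only the compared groups, leaving out the 10 most abundant genes, and leaving out each library. Applying them to the lists of other repair genes and proliferation markers was chosen after seeing the data. The steps were tested on simulated data.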

Additional observations from a re-analysis of the deposited data

Results flagged for a closer look

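The MPG libraries lay on opposite sides in the 2 belinostat comparisons, neither of which was called. MPG was found by searching the members in these same data for such opposite sides or a called interaction. The share of all genes that meet this rule was not computed. In cells kept on AsiDNA, both libraries given belinostat (30.2 and 33.2 CPM) lay above both that were not (22.8 and 26.0 CPM), and in cells without AsiDNA both belinostat libraries (22.3 and 21.8 CPM) lay below both DMSO libraries (26.3 and 25.1 CPM). The log2 fold changes were 0.38 ± 0.15 in the combination against AsiDNA (adjusted p = 0.0563 in edgeR) and -0.22 ± 0.15 in belinostat against DMSO cells (adjusted p = 0.236 in edgeR). The difference between the 2 log2 fold changes was 0.6 ± 0.21, with an adjusted p of 0.139 in edgeR's interaction test, so it was not called. This difference lay between 0.51 and 0.75 when 1 library was left out, and between 0.59 and 0.7 under the other alternatives.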

How the results depend on the processing

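Between the main fit and each alternative, no member value called in either changed sign. Uncalled values did. UNG in the combination against DMSO was -0.11 in the main fit and 0.21 without DMSO replicate 1. NTHL1 in the combination against AsiDNA was 0.28, and lay between -0.14 and 0.93 without 1 library. Counts of called members stayed within 1.5 times for belinostat against DMSO (7 of 9), the combination against AsiDNA (6) and the combination against DMSO (6). For the combination against belinostat, 4 calls became 2 at an adjusted p under 0.01, beside 3804 of 14741 tested genes at that threshold. With 1 library left out, TDG lay there between -0.46 and -0.35 and MPG between 0.5 and 0.66. For AsiDNA against DMSO, UNG lay between -0.15 and 0.42 and NEIL2 between -0.03 and 0.49 without 1 library. For the interaction, DESeq2 called 1 of 5 members, beside 704 of 7523 genes. With no filter 1 of 10 members was called, beside 1549 of 30848 genes. Without the 10 most abundant genes it was 1 of 9, beside 365 of 14731. The causes were not tested. A fit without 1 library leaves 1 in that group, so its p-values and calls hold no spread of that group. Numbers in the labels do not pair the libraries by the correlation check, and a replicate block gave 7, 6, 6, 3, 0 and 0 member calls for belinostat against DMSO, the combination against AsiDNA, against DMSO and against belinostat, AsiDNA against DMSO and the interaction, in that order. Only the TDG call in the combination against belinostat was lost under the block (-0.46, adjusted p = 0.0554). A fit of only the groups compared cannot be made for the interaction. Scaling by library size alone moved the median log2 fold change of all genes to -0.118 for the combination against AsiDNA and to -0.204 for the combination against DMSO, with 2568 higher and 3961 lower, and 2679 higher and 4648 lower, against 3199 and 3120, and 3586 and 3498 with TMM. Over all genes, AsiDNA against DMSO gave 4955 calls without DMSO replicate 1 and 62 without DMSO replicate 2, against 3 with both. Of the fitted member values under alternatives, 766 kept their side of the threshold, 16 gained a call and 19 lost one. Depth limits NEIL1, at 0 to 8 counts, and NTHL1, at 17 to 44.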
